A study of Mus musculus with 8 samples.

Results

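The general pluripotency genes are those that mouse embryonic stem cells (mESCs) use in both the naive and the primed state, and 10 of them were followed here: Pou5f1, Sox2, Sall4, Sall1, Lin28a, Utf1, Dppa2, Dppa4, Dppa5a and Zfp281. They were chosen as the rows of the expression table that carry these gene symbols. All 10 were found, 1 row each, among the 19429 genes of the table. RNA-seq had been performed on LF2 mESCs, a mouse embryonic stem cell line, to ask how gene expression responds to the D2018A mutation near the C-terminus of TET1, an enzyme that oxidises 5-methylcytosine in DNA. WT lines 2 and 5 have wild-type TET1, and lines 7 and 8 have D2018A. Each of the 4 lines gave 2 technical replicates, hence 4 libraries for WT and 4 for D2018A, and the biological sample is 2 lines against 2. All lines carry a FLAG tag at the C-terminus of TET1, were edited with Cas9 at Tet1, were grown from single cells, and were kept in medium with LIF and 10% serum. Each line is therefore 1 clone, and the study describes a large deletion beyond the cut site in WT but not in D2018A cells. The study also assayed cells with wild-type TET1 and 1 intact copy of that region, by qPCR and by mass spectrometry of 5-methylcytosine. From these it assigns the differences to D2018A and not to the deletion, which was not tested here.

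POU5F1 (OCT4) and SOX2 are DNA-binding proteins that sit side by side on a composite octamer and SOX element and, with many partners, keep the gene network of the early embryo's epiblast active. SALL4, SALL1 and ZFP281 are zinc finger proteins of the same network, UTF1, DPPA2 and DPPA4 are chromatin proteins, and LIN28A and DPPA5A bind RNA. Most of these genes are switched off as cells differentiate, which is why they serve as markers of pluripotent cells.

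The table gives 1 value per gene that could be used, the authors' mean normalised count over all libraries, with no value per library, line or genotype. Every level below is that mean, with no SD and no number of replicates, and no difference between WT and D2018A was measured. A gene with 1 read in 1 library leaves a mean that many genes share, and 12 such values were found, each in 38 to 123 genes. That is 4 more than the 8 libraries described. If each value stands for 1 library, the mean also covers libraries whose genotype is not given. The number is inferred from the limits set for such values and is not stated in the sources used here. On that reading the size factors of the 12 libraries, taken from the same values, ranged from 0.726 to 1.47. To compare genes with each other, each mean was divided by the length of the gene's annotated exons in kb and the result is named the level per kb.

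Each of the 10 genes had a mean of at least 100, and 8 had a mean of at least 1000. The share of all genes that reach these means was not computed, so these 2 counts do not show that the members stand out. Means with no division by length also favour long genes. All 10 lay above the median of the 16931 protein-coding genes with a length, which was 24.5 per kb. Of the 10, 7 lay in the top 10%, which began at 298 per kb. The median of the 10 was 1211 per kb, and the median of their percentiles among protein-coding genes was 97.998. Together they made up 0.379% of the summed means of all genes. The spread among them was wide, since the highest level per kb, that of Utf1, was 48.1-fold that of the lowest, Dppa4. From the highest to the lowest the order per kb was Utf1, Sall1, Sall4, Dppa5a, Sox2, Pou5f1, Lin28a, Zfp281, Dppa2 and Dppa4. This order holds for merged exons, and the median transcript length put Sall4 first. With 12 libraries assumed, the reads behind each mean numbered at least 1777, the figure for Dppa4. Counting error was then at most 2.37% of a mean. The spread between libraries was not measured, and whether neighbours in this order differ beyond it cannot be said. Only counting error, which is small beside the gaps, is known.

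**Figure D1:**
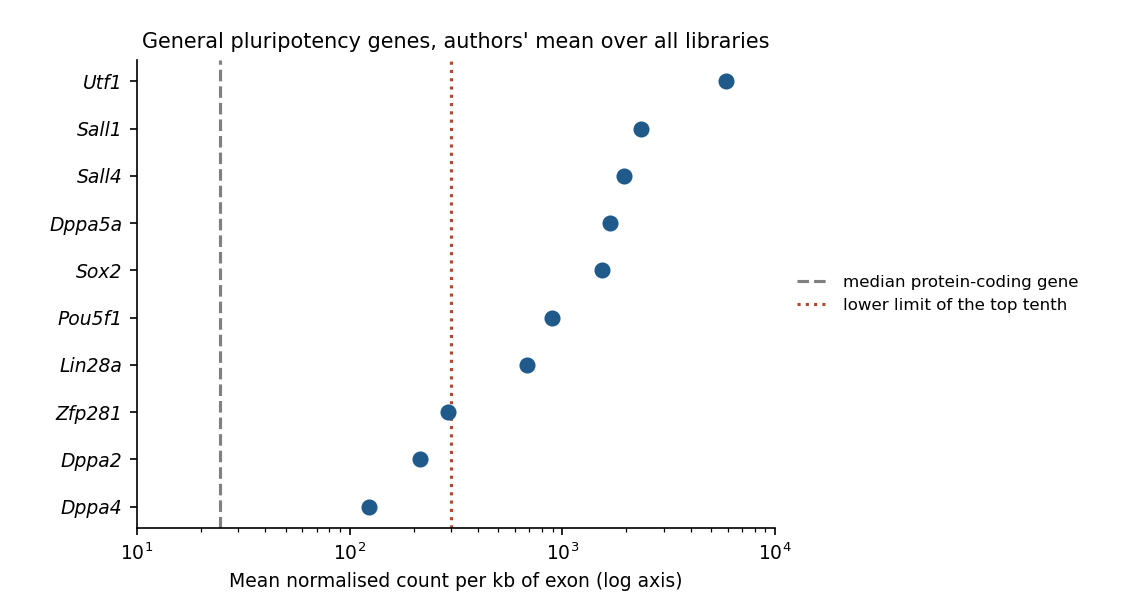
Each point is the authors' mean normalised count of 1 gene over all libraries divided by its exon length in kb, on a log axis, with no error because no values per library were used. All 10 genes lie to the right of the dashed line, the median protein-coding gene at 24.5 per kb, and 7 lie to the right of the dotted line at 298 per kb where the top 10% begins, with Zfp281 just to its left.

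Pou5f1 encodes OCT4, the POU homeodomain protein without which pluripotent cells cannot be kept. The gene (ENSMUSG00000024406) lies at chr17:35506018-35510772 on the plus strand of GRCm38, with up to 5 exons in a transcript. Its mean was 2011 normalised counts, which is 894 per kb, at percentile 97.2 and rank 467 of the protein-coding genes. The length used matters for this gene. Its 6 annotated transcripts merge to 2248 exon bases, while the longest single transcript has 1362 bases, and on that length the level was 1476 per kb. On the median length of its transcripts it was 3396 per kb. Within the POU family Pou5f1 ranked first of 15 genes per kb and held 66.9% of the family's summed level per kb. The next was Pou2f1, which encodes the widely expressed OCT1, at 247 per kb, and Pou5f1 was 3.62-fold higher. Without division by length the order turns, because Pou2f1 is a long gene with a mean of 4096 normalised counts. Pou2f3 followed at 99.4 per kb, and the other 12 POU genes lay between 0.106 and 40.7 per kb. Among them Pou3f1, which marks the primed state and early neural cells, was at 16.5 per kb.

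Sox2 encodes the HMG box protein that pairs with OCT4. It is a single-exon gene (ENSMUSG00000074637) at chr3:34650405-34652461 on the plus strand. Its mean was 3142 normalised counts, or 1527 per kb, at percentile 98.8 and rank 211. Per kb it was 1.71-fold the level of Pou5f1, and by the mean itself 1.56-fold. With both measured on their longest transcript the levels of the pair were 1527 and 1476 per kb, and on the median length of their annotated transcripts the order turned, with Pou5f1 at 3396 per kb against 1527 for Sox2. Which of the pair was higher per kb thus depends on the length used. Sox2 was first of the 18 SOX genes in the table and held 41.9% of their summed level per kb. Sox15, an HMG box gene also known from mESCs, came next at 956 per kb, so that Sox2 was 1.60-fold higher, and Sox12 and Sox13 followed at 508 and 442 per kb. The remaining 14 SOX genes lay between 0.197 and 100 per kb, among them Sox3, a close relative of Sox2, at 6.23 per kb.

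Several genes are known to be driven through an OCT4-SOX2 composite element, and 7 of these were listed, 3 of them being Pou5f1, Sox2 and Utf1 themselves. Their median was 1362 per kb, and 5 of the 7 lay in the top 10%. Nanog, a homeodomain factor of the naive network, was at 2572 per kb and Fgf4, the growth factor gene, at 1362 per kb. Fbxo15 and Lefty1 were lower, at 94.3 and 56.6 per kb.

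The promoter letters are shown for Sox2, Pou5f1 and Utf1 because these genes code for both partners and for one of their best known targets. Each line gives the 250 bases before a RefSeq start site in GRCm38.p6, 5′ to 3′ on the gene's strand. Capitals mark the GC box (GGGCGG), the octamer core (ATGCAAA) and the SOX core (ACAAAG), each searched on both strands. The octamer core is contained in the full octamer ATGCAAAT, which was searched too, and GC boxes can overlap one another.
Sox2, chr3:34649745-34649994, plus strand: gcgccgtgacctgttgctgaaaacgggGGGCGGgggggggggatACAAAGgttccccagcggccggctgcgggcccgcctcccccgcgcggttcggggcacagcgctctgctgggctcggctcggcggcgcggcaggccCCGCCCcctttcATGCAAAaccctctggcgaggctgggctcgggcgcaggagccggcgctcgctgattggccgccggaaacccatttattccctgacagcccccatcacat
Pou5f1, chr17:35505782-35506031, plus strand: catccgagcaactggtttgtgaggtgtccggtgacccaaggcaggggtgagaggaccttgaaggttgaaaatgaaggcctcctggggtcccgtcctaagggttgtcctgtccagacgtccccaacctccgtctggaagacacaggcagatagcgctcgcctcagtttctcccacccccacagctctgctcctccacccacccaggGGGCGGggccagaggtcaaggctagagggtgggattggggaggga
Utf1, chr7:139943606-139943855, plus strand: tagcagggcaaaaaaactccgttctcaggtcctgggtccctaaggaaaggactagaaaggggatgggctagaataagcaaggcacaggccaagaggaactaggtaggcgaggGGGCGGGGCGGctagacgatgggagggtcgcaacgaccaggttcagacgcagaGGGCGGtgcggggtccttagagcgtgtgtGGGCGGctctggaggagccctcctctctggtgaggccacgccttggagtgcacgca

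Positions are counted from the RefSeq start site, which is not always the first base that the expression table gives for the gene. For Sox2 the table's first base lies 410 bases downstream of that site, and for Pou5f1 and Utf1 it lies 14 and 67 bases upstream. The Sox2 window holds a GC box on each strand, at -223 and -111 from the start site, a SOX core at -206 and an octamer core at -99. The SOX core and the octamer core do not lie side by side, so they do not form a composite element. Of all 32851 RefSeq windows of 250 bases before and 50 after a start site, 35.7% hold a GC box, 18.7% a SOX core and 4.63% an octamer core. The Pou5f1 window holds 1 GC box, at -45. The Utf1 window holds 4 GC boxes, at -138, -133, -85 and -56, of which the first and second overlap. No full octamer was found in any of the 9 windows of the members, and 1.74% of all windows hold it. This says only that these letters are not in these windows. Sequence outside the windows, where composite elements can also lie, was not searched. Windows were present for 6 of the 10 genes, namely Pou5f1 (2 windows), Sall1 (3), Sox2, Utf1, Lin28a and Zfp281 (1 each). CpG pairs, where most 5-methylcytosine lies, numbered 27 in the windows of Sox2 and Zfp281, 18, 27 and 39 in those of Sall1, 17 in that of Utf1, 11 and 6 in those of Pou5f1 and 10 in that of Lin28a. The median of all windows was 7, with quartiles of 3 and 20, so that 8 of the 9 windows lay above the median and 4 above the upper quartile. Methylation was not measured in these files. A TATA box (TATAAA) was found in none of the 9 windows and in 13.6% of all windows. A CCAAT box (CCAAT) was found in the windows of Pou5f1 (both), Sox2 and Zfp281 and in 1 of Sall1, and in 37.4% of all windows.

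Sall4 and Sall1 encode zinc finger proteins of the spalt family that bring the NuRD deacetylase complex to DNA. Sall1 (ENSMUSG00000031665, chr8:89027235-89044162, minus strand) had the highest mean of the 10 genes, 12315 normalised counts, and Sall4 (ENSMUSG00000027547, chr2:168748332-168767943, minus strand) the next highest, 10816. Per kb they were at 2339 and 1954, ranks 116 and 150 of the protein-coding genes, and Sall1 was 1.197-fold Sall4. On the median length of the annotated transcripts, of which Sall4 has 7 and Sall1 has 1, this order turned, with Sall4 at 13992 and Sall1 at 2339 per kb. The other spalt genes were far lower. Sall3 was at 85.6 and Sall2 at 43.9 per kb, so Sall1 and Sall4 held 52.9% and 44.2% of the family's summed level per kb. Sall1 was 27.3-fold and Sall4 22.8-fold the level of Sall3.

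The genes of the NuRD complex, which remodels nucleosomes and removes histone acetylation, were all expressed as well. All 13 listed genes lay above the median protein-coding gene and 7 lay in the top 10%, with a median of 322 per kb. Rbbp4, a histone-binding subunit, was the highest at 1266 per kb. Chd3, a remodeller of the same type as Chd4, was the lowest at 50.6 per kb, while Chd4 was at 928 per kb. Both Sall1 and Sall4 lay above every one of these subunits per kb. With no division by length Rbbp4, at a mean of 11073, lay above Sall4 at 10816 and below Sall1 at 12315.

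Zfp281 encodes a zinc finger protein that binds GC-rich DNA and takes part in the passage from the naive to the primed state. The gene (ENSMUSG00000041483) lies at chr1:136624901-136630053 on the plus strand. Its mean was 1438 normalised counts, or 291 per kb, at percentile 89.7 and rank 1742. It was the member nearest to the edge of the top 10%, just below 298 per kb, and it entered the top 10% when genes of every biotype were ranked, which made 8 of 10. Its close relative Zfp148 was at 61.5 per kb, and Zfp281 was 4.74-fold higher. Its promoter window holds 4 GC boxes.

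Utf1, a chromatin-bound protein of undifferentiated cells, had the highest level per kb of the 10. The gene (ENSMUSG00000047751) is short, with 2 exons and 1227 exon bases at chr7:139943789-139945112 on the plus strand. Its mean of 7243 normalised counts was the third highest, and its 5903 per kb was 2.52-fold that of Sall1, the next in order. It ranked 29 of the protein-coding genes, at percentile 99.8. For scale, the housekeeping list had a median of 363 per kb and ran from Ppia at 79.5 to the actin gene Actb at 21673 per kb. The gene on the lower side of Utf1, Kndc1, lies 2.25 kb away and was at 21.3 per kb, 277-fold lower.

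Dppa2 and Dppa4 encode SAP domain proteins that bind DNA as a pair and hold developmental promoters ready for use. They lie 16.2 kb apart on chromosome 16, both on the plus strand, with no other gene of the table between them. Dppa2 (ENSMUSG00000072419, chr16:48310477-48319723) had a mean of 523 normalised counts, or 214 per kb, at percentile 85.996. Dppa4 (ENSMUSG00000058550, chr16:48283735-48294292) had a mean of 204, or 123 per kb, at percentile 77.7. They were the lowest 2 of the 10 genes, and Dppa2 was 1.74-fold Dppa4. The gene beyond Dppa2, Morc1, was at 61.4 per kb.

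Dppa5a (ESG1), a small protein with a KH-type RNA-binding fold, is encoded by a short gene (ENSMUSG00000060461, chr9:78367052-78368177, minus strand) with 3 exons and 619 exon bases. Its mean was 1034 normalised counts, number 8 of the members by mean. Per kb it was at 1670, number 4 of the members and rank 180 of the protein-coding genes. Divided by the part of its length that no other annotated gene shares, it was at 2720 per kb, number 2 of the members, and with every gene on its median transcript length it was number 6. Its neighbour Ooep, a gene of oocytes and early embryos, lies 7.93 kb away and was at 658 per kb, while Omt2b on the other side was at 0.0703 per kb. The name Dppa stands for developmental pluripotency associated and not for 1 protein family, and of the 4 such genes in the table Dppa5a was the highest, followed by Dppa2 and Dppa4. Dppa3, a maternal factor that protects DNA methylation, was at 8.16 per kb, below the median protein-coding gene.

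Lin28a encodes the RNA-binding protein that blocks maturation of let-7 microRNAs. The gene (ENSMUSG00000050966) lies at chr4:134003330-134018841 on the minus strand. Its mean was 2711 normalised counts, or 678 per kb, at percentile 96.2 and rank 646. On the median length of its 4 transcripts it was 5637 per kb. Its paralog Lin28b was at 6.43 per kb and Lin28a was 106-fold higher. Among 9 genes that make, block or are regulated by let-7, the median was 134 per kb. Drosha, the nuclease that makes the first cut in microRNA precursors, was the highest at 891 per kb. Trim71, a let-7 target itself, was at 503 per kb, Zcchc11, the uridyl transferase that LIN28A recruits, at 168, and Hmga2, another let-7 target, at 21.8 per kb.

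In each of the 6 groups, of which DPPA is a group by name and LIN28 and Zfp281 with Zfp148 are pairs of 2 genes, a general pluripotency gene was the highest per kb. By the mean with no division by length this held in 5, the exception being the POU family. Members make up much of the small groups, with Dppa2, Dppa4 and Dppa5a among 4 DPPA genes and Sall1 and Sall4 among 4 SALL genes. A member in first place therefore says little in those groups and in the pairs. In the wider list of 9 let-7 genes Drosha, at 891 per kb, lay above Lin28a at 678.

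The other lists place these levels in the cells. The 14 naive pluripotency genes had a median of 866 per kb, and 11 lay in the top 10%, beside 7 of the 10 general genes. Esrrb, an orphan nuclear receptor of the naive network, was the highest at 3817 per kb, and Dppa3 the lowest. The 12 formative and primed genes had a median of 29.96 per kb, close to the median protein-coding gene, and 2 lay in the top 10%. Zic2, a zinc finger gene, led them at 327 per kb, and Fgf5, the best known primed marker, was at 0.336 per kb. The lowest of the general genes, Dppa4 at 123 per kb, lay above 9 of these 12. This depends on the division by length. By the mean itself Dppa4, at 204, lay below Dnmt3b (1572), Zic2 (940), Foxd3 (635), Dnmt3a (462), Zic5 (303) and Lef1 (283). It lay above the rest, of which Otx2 was close at 203. No test was made of these differences, since genes are not replicates.

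Markers of other cell types were mostly low. The medians were 16.2 per kb for ectoderm, 4.02 for mesoderm and primitive streak, 2.44 for endoderm, 5.14 for trophoblast and 0.264 for fibroblasts, which are used as feeder cells. Each of these lists had a gene well above its median. Tubb3, a neuronal tubulin gene, was at 929 per kb, Tfap2c, which is also active in pluripotent and germ cells, at 460, Sox7 at 100, Thy1 at 64.8 and Eomes at 47.8 per kb. The fibroblast collagen gene Col3a1 was at 0.00948 per kb, the lowest of its list, and its mean of 0.0930 equals a value left by 1 read in 1 library. Col1a1, another collagen gene of that list, was at 17.5 per kb with a mean of 115. Of the 8 fibroblast genes, 3 were not in the table. In the top 10% lay 7 of the 10 general and 11 of the 14 naive genes. Pou5f1, Sox2 and Nanog were among them, while Dppa2, Dppa4, Zfp281, Dppa3, Nr5a2 and Stat3 were not. The ectoderm and trophoblast lists had 1 gene each there, Tubb3 and Tfap2c, and the mesoderm, endoderm and fibroblast lists had none. The labelled cell type was not tested beyond these levels. The mean cannot tell a low level in all cells from a high level in a few.

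**Figure D2:**
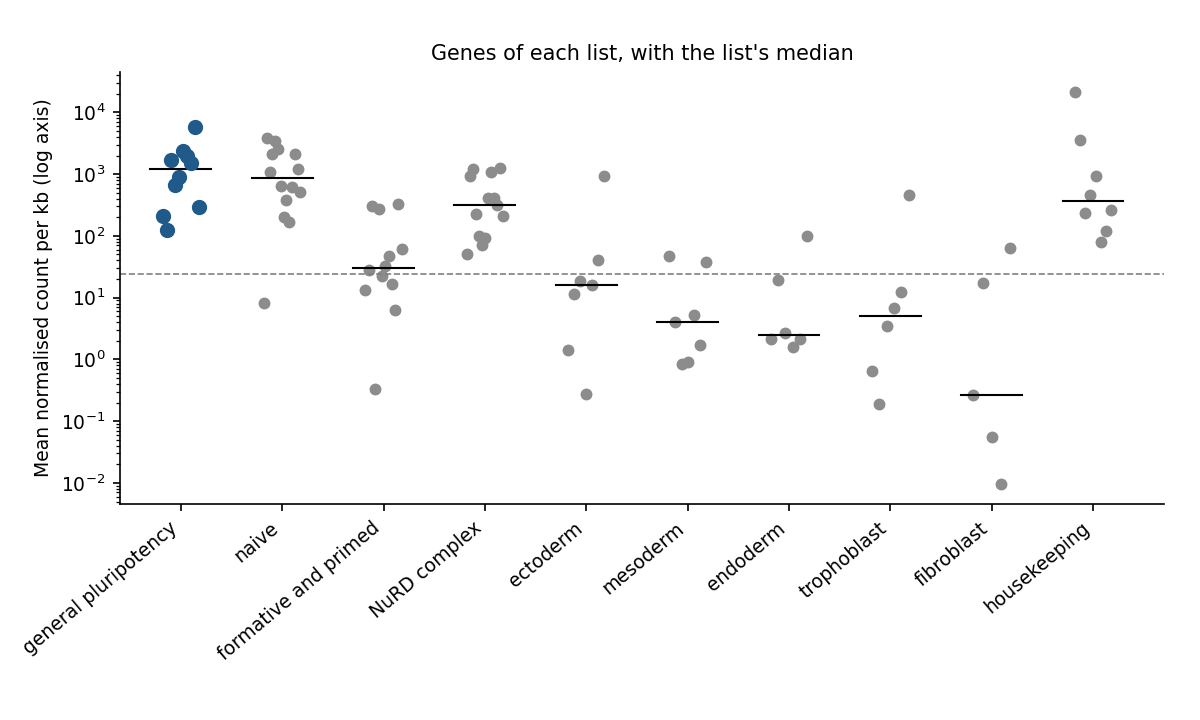
Each point is 1 gene, with its mean normalised count per kb of exon on a log axis, and the black bar is the median of its list. The general and naive pluripotency genes have medians of 1211 and 866 per kb, against 29.96 for formative and primed genes and 0.264 to 16.2 for the lists of other cell types, and the dashed line is the median protein-coding gene at 24.5 per kb.

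The level of a member depends on which reads could be assigned to it. Reads were 50 bases long and single-end, and a read that fits more than 1 gene is not safely counted for either. Each 50-base stretch of each gene's annotated transcripts was therefore looked up in the transcripts of all other annotated genes, on both strands. Of the protein-coding genes, 41.0% shared no stretch, the median gene shared 0.397%, and 10.6% shared more than 20%. Utf1, Sall1, Sox2 and Zfp281 shared none. Lin28a, Sall4 and Pou5f1 shared 4.72%, 7.64% and 10.1%. Dppa2, Dppa4 and Dppa5a shared 29.1%, 31.3% and 38.6%, and are uncertain for that reason.

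In Lin28a and Sall4 the shared stretches all came from a gene that overlaps on the opposite strand, Gm13061 and Gm14261. In Pou5f1, 221 of the 233 shared stretches came from the opposite-strand gene Gm19553, whose own mean in the table was 0.477, and 13 stretches came from a processed pseudogene on chromosome 3, Gm5712. Whether the counting used strand is not given in the sources used here, so reads of such pairs cannot be told apart. The longest coding run that Pou5f1 has in common with Gm5712 is 61 bases at chr17:35510299-35510359, shown in capitals because every base is shared.
Pou5f1 coding bases 807 to 867 of 1056: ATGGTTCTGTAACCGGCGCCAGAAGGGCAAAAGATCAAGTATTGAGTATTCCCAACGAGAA

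Dppa2 shared stretches with 7 processed pseudogenes, most with Gm9788 on chromosome 19 and Gm8023 on chromosome 1, at 27.1% and 18.4% of its stretches. Dppa4 shared stretches with 2, foremost Gm14058 on chromosome 2 at 22.4%. Dppa5a shared stretches with 9 genes, of which 7 are annotated as pseudogenes, including Dppa5b and Dppa5c on chromosome 9. Protein-coding Pigp on chromosome 16, a gene of GPI anchor synthesis, shared 12.3% of the Dppa5a stretches and was the only one of the 9 with a row in the table, at a mean of 64.4.

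Coding sequence of these 3 genes is shown next to make the sharing visible. Capitals mark bases inside a 50-base stretch that also occurs in a transcript of a copy used for the marking, which was 6 of 7 for Dppa2, 1 of 2 for Dppa4 and 9 of 9 for Dppa5a. Lower case marks bases with no such stretch in the copies used, so in Dppa2 and Dppa4 a lower-case base may still be shared with the copy left out. Each line is 300 coding bases of the longest coding transcript in GENCODE vM21 on GRCm38, with introns left out.
Dppa2 coding bases 201 to 500 of 903, chr16:48313914-48315786, plus strand: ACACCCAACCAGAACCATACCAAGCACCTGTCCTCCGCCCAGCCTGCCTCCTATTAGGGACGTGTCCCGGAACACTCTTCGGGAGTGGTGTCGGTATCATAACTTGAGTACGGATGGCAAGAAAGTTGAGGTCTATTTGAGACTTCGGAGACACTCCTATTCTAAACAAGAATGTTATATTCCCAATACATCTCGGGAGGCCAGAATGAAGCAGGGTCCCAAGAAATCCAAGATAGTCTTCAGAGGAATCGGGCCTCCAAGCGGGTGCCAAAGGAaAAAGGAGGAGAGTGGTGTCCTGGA
Dppa4 coding bases 301 to 600 of 888, chr16:48289197-48291253, plus strand: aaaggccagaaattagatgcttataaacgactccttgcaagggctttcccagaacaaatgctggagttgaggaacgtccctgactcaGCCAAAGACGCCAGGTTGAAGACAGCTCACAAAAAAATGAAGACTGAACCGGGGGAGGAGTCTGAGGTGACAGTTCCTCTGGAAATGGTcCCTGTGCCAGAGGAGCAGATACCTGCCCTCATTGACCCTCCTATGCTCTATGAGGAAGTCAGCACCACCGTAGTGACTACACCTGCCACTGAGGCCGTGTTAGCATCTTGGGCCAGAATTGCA
Dppa5a coding bases 1 to 300 of 354, chr9:78367293-78368099, minus strand: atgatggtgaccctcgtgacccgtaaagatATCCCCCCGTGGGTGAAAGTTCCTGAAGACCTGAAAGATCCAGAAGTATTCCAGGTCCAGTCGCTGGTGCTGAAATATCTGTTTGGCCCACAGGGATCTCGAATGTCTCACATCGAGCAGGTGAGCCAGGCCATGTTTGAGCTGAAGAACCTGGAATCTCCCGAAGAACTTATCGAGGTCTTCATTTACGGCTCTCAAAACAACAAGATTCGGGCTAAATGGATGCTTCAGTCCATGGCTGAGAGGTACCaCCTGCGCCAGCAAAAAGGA

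Over the whole coding sequence the share of bases inside such a stretch was at least 96.1% for Dppa2, at least 63.1% for Dppa4 and 91.2% for Dppa5a. It was 10.5% for Pou5f1 and 0% for the other 6 genes, where genes that overlap a member on the opposite strand were left out of the marking.

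If reads from shared stretches had all been left out of the counts, the length to divide by would be the unshared part alone. On that length Dppa5a went from 1670 to 2720 per kb and moved up to the place behind Utf1. Dppa2 went from 214 to 301 per kb and passed Zfp281. Dppa4 went from 123 to 179 per kb and stayed last. Pou5f1 went from 894 to 994 and kept its place. Sall4 and Lin28a moved by 1.08-fold and 1.05-fold, and the other 4 genes did not move. The number of members in the top 10% was 7 on either length. The study names STAR for the gene counts but does not say how reads with more than 1 place were treated. If they were left out, the levels per kb of exon are too low for Dppa5a, Dppa2 and Dppa4. The levels on both lengths are therefore given.

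**Figure D3:**
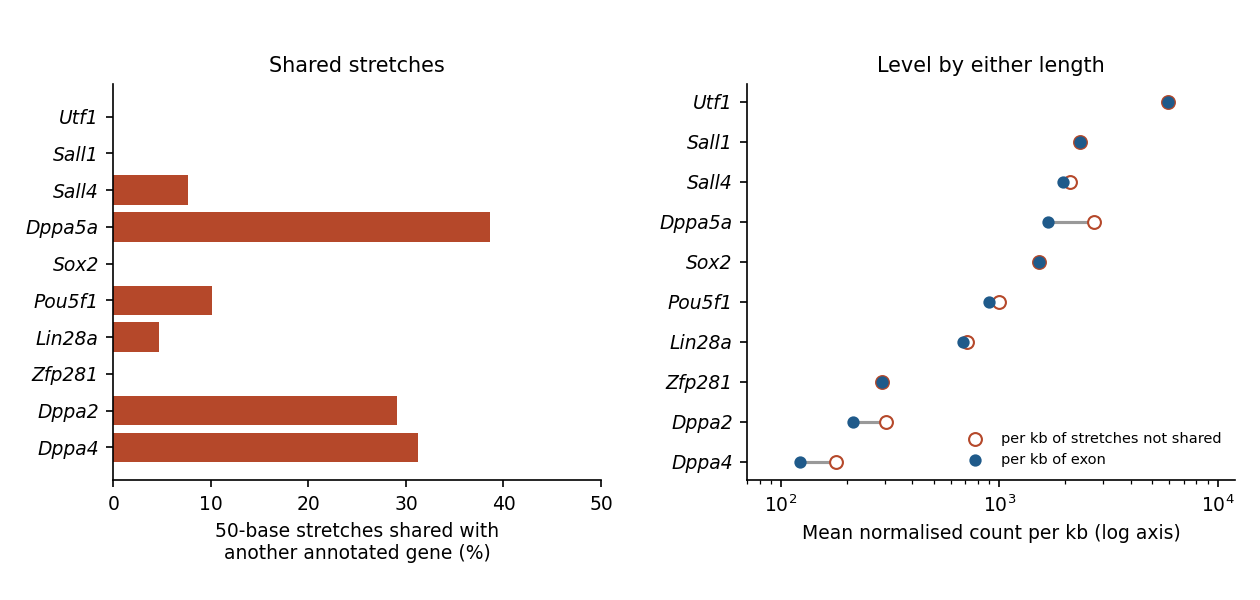
The left panel shows, as bars from 0, the percent of each gene's 50-base transcript stretches that also occur in another annotated gene, which is largest for Dppa5a at 38.6%. The right panel shows on a log axis the mean normalised count per kb of exon (filled) and per kb of unshared stretches (open), with the widest moves for Dppa5a, Dppa4 and Dppa2.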

How the data were processed

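RNA was depleted of ribosomal RNA and sequenced as single-end reads of 50 bases. The authors counted reads per gene with STAR 2.5.3a on GRCm38.p6 and normalised them with DESeq2 1.20.0. The deposited table gives, per gene, the authors' normalised signal (count over the library's size factor) as a mean of all libraries. Its other columns hold the authors' comparison of the genotypes (log2 fold change, its error, a statistic, p-values) and were not used, so no genotype test was made.

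Exon lengths came from GENCODE vM21. Of the table's identifiers 19351 were in it, 17554 with the same start and end. Values left by single reads were means under 0.3 shared by at least 30 genes. Shared 50-base stretches, percentiles and these values were computed in Python 3.11.15 and tested on simulated data. The simulation of single reads had 12 libraries and was not run with 8. It therefore cannot say whether 8 libraries could leave 12 such values. Promoter windows came from RefSeq, and for 6 of 10 genes a window was matched. Copies outside annotated transcripts were not searched.

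Every member is named, with the highest other gene of its family, the highest and lowest gene of each other list, neighbours, and genes that share stretches. Further genes named from the lists were chosen after their values were seen. The members and lists were chosen with earlier results of these data known. Levels were recomputed on other lengths, gene sets and minimum means.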

Additional observations from a re-analysis of the deposited data

How the results depend on the processing

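The 4 counts (members in the top 10%, above the median protein-coding gene, at a mean of at least 100, and groups led by a member) were recomputed under 7, 7, 2 and 4 alternatives each, and every recomputed count stayed within 1.5-fold of the one reported. None of the 4 counts could have risen 1.5-fold, as there were only 10 members and 6 groups, so that limit could only catch a fall. The counts above the median, at a mean of at least 100 and of groups led were at their maximum already and could not rise. With the minimum mean lowered to 10 the count could only stay at 10. The count above the median was 10 of 10 throughout, so it says little about stability. The top 10% held 7 members under each alternative of length, and 8 when genes of every biotype were ranked. At a minimum mean of 1000 there were 8 members in place of 10, and with no division by length 5 groups were led by a member in place of 6. Division by the unshared length was chosen after seeing the data. The median transcript length moved single levels more, because short partial transcripts are annotated: Pou5f1 came to 3396, Lin28a to 5637 and Sall4 to 13992 per kb. Sall4 then ranked first of the 10, above Sall1, and Pou5f1 lay above Sox2.

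No paired analysis was possible because the table gives no values per library. For the same reason the planned edgeR test of genotype, its version with DESeq2, its version with no filter on low counts and its versions without each line in turn were not run. The mean appears to cover 12 libraries, a number inferred from single reads, of which 8 are described. Levels rest on it with counting error alone known.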
